A study of Drosophila melanogaster with 36 samples.

Results

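The centromere-proximal arm ends are the last 2 Mb of each Drosophila chromosome arm, as assembled in dm3, on the side of the centromere. They are described here through their contacts within the same arm. They were chosen by position alone, as the 50 bins of 40 kb with the highest coordinates of X, 2L and 3L and with the lowest coordinates of 2R and 3R in dm3, which gives 250 of the 2977 bins of the 5 arms. The ends run over X 20440001–22422827, 2L 21000001–23000000, 2R 1–2000000, 3L 22560001–24543557 and 3R 1–2000000. The interior of an arm, 2477 bins in all, lies more than 2 Mb from either end of the arm.

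Hi-C, which ligates crosslinked restriction fragments and so counts how often stretches of chromatin meet, was performed in ovarian somatic cells (OSCs), a cultured Drosophila line that silences transposons through Piwi and its piRNAs. Cells received siRNAs against Piwi, Nxf2, linker histone H1, Eggless (Egg) or HP1a, and Control-KD cells received siRNAs against EGFP. Every group is this same cell line, treated with siRNAs by nucleofection. The Piwi, Nxf2 and HP1a series each have their own Control-KD, while H1-KD and Egg-KD share one. The HP1a series, labelled HP1-KD, was collected after 2 days of knockdown (KD), whereas the titles of the other Hi-C samples give no time; their protocol describes KDs of 2 and of 4 days, and Piwi-KD is described as one of 4 days. The 2 replicates of each group had been merged into 1 contact matrix, giving 5 KD and 4 Control-KD matrices. The DamID-seq and ChIP-seq data of the series were not used here.

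The DNA next to centromeres is packed as pericentromeric heterochromatin, rich in transposons and other repeats and carrying methylated lysine 9 of histone H3. Which of the arm-end bins are heterochromatin was not determined here. Egg, the fly counterpart of SETDB1, places this methylation, HP1a binds it and can bridge nucleosomes, and H1 binds the linker DNA between nucleosomes and compacts the fibre. Piwi, guided by piRNAs, silences transposons in the nucleus with Nxf2 as a partner and brings the same machinery to its targets.

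The matrices hold 25463370 (H1-KD) to 73205693 (Piwi-KD) contacts, as recovered from the deposited values. Of the 250 arm-end bins, 239 (H1-KD) to 244 were kept by the authors' coverage filter, and 239 were kept in all 9 matrices. The bins X 21560001–21640000, X 21680001–21760000 and 2L 21440001–21520000 were absent from every matrix, and 3 bins of the outermost 3L end were absent from H1-KD alone. Arm-end bins had less coverage than the interior, with a median of 0.76 (Control-KD of the HP1a series) to 0.83 (HP1a-KD) of the interior median of their arm. Merged replicates leave no replicate spread, so there are no p-values. Each change was therefore set beside the same difference within the 6 pairs of Control-KD matrices, given as its root mean square (the control-pair spread) and as the largest of the 6. Such pairs hold counting error and whatever differs between experiments. The Control-KD matrices of the Piwi and Nxf2 series differ most from each other at the arm ends, with 53 of 242 end bins past the limit defined further on (21.9%, against 3.63% of all bins), against 0 for the Control-KD shared by H1-KD and Egg-KD over that of the HP1a series (0.0338% of all bins).

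The position of the bins was first checked against their behaviour. Centromeres of Drosophila cluster in the nucleus, and the arm ends contacted the centromere-proximal ends of other arms 3.92-fold (HP1a-KD) to 8.28-fold (Control-KD of the HP1a series) more than the telomere-proximal ends of other arms. The ratio was 5.23 in Piwi-KD against 6.30 in its Control-KD, 5.88 in Nxf2-KD against 6.64, 5.18 in H1-KD and 4.52 in Egg-KD against 7.79, and 3.92 in HP1a-KD against 8.28. The label thus fits the data in all 9 matrices, and the ratio was lower in each KD than in its own Control-KD. The Control-KD ratios themselves ran from 6.30 to 8.28. In HP1a-KD the mean value with other centromere-proximal ends was 2.53 against 4.04, and that with telomere-proximal ends 0.64 against 0.49. In H1-KD and Egg-KD the first was 3.26 and 3.17 against 3.37, and the second 0.63 and 0.70 against 0.43. These values do not separate the other arm of the same chromosome from arms of other chromosomes. Whether centromere clustering changed was not tested.

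Contacts within an arm end were next compared with the interior of the same arm. For each pair of bins the mean value of interior pairs at the same distance gave the expectation, and the sum of observed over the sum of expected values is the ratio reported here. A ratio of 1 means that bins of the end meet as often, on average, as interior bins at the same distances. It does not mean that the end is folded alike. This quotient does not depend on how a matrix was scaled. In the 4 Control-KD matrices, contacts at 40 to 400 kb were above expectation in all 5 ends, with mean ratios of 1.36 ± 0.039 on X, 1.27 ± 0.010 on 2L, 1.24 ± 0.056 on 3L, 1.23 ± 0.038 on 2R and 1.06 ± 0.011 on 3R (SD, n = 4 matrices). X was above 2L in every one of these matrices and 3R was the lowest, whereas the values of 2L, 3L and 2R overlapped. At the telomere-proximal ends the same ratio was 0.97 to 1.08. These ratios are summed over distance, and bins 40 kb apart did not share the excess. At 40 kb, the log2 of end over interior at the centromere-proximal ends was -0.060 to -0.010 in Control-KD, as the mean of the arms. At 80 kb it was 0.15 to 0.26.

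The excess was greater beyond 400 kb on 2R, 3L, 2L and 3R, but not on X. Beyond 400 kb, the ratio was 2.51 ± 0.062 on 2R and 2.32 ± 0.14 on 3L, against 1.54 ± 0.023 on 2L, 1.35 ± 0.044 on X and 1.19 ± 0.031 on 3R. The order of the ends therefore differs from that at short distance, with 2R and 3L standing apart from the other 3. Of 47 windows of 2 Mb that tile the interior of the arms, none exceeded 1.26, and the lowest had 0.70. Only the 3R end lay within the range of these windows. Telomere-proximal ends had 0.96 to 1.37. The excess did not last to the longest distances. As the mean of the arms, the log2 of end over interior in Control-KD was 0.82 to 0.87 at 600 kb. At 1600 kb it was -0.013 to 0.090.

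**Figure D1:**
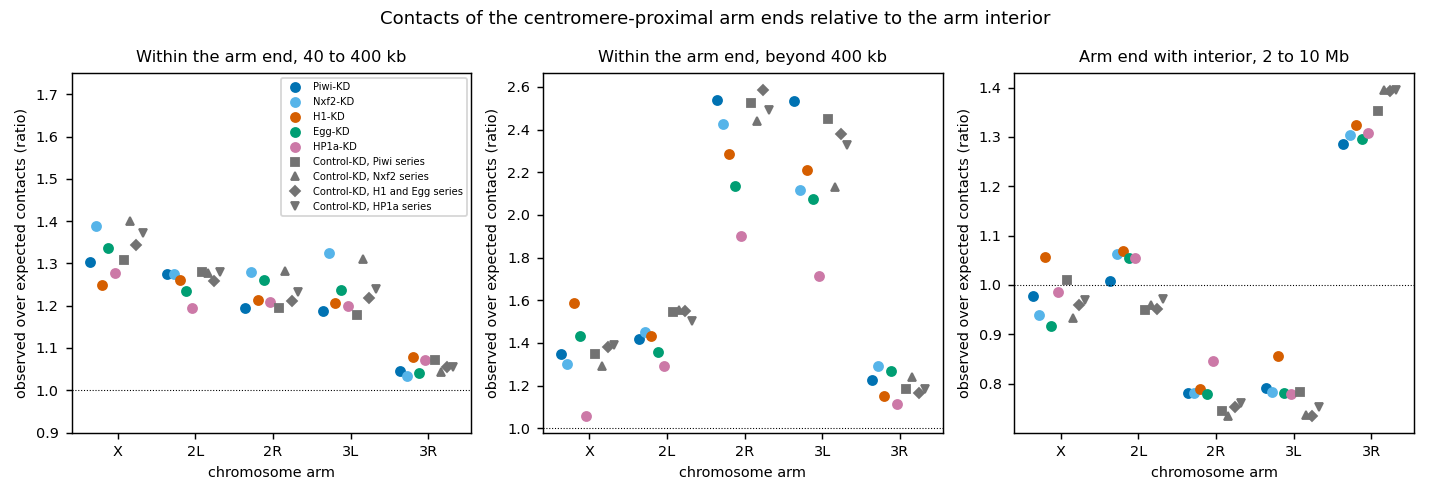
Observed over expected contacts (y axis, ratio) of the centromere-proximal end of each arm (x axis) in the 5 KD matrices (coloured circles, left) and the 4 Control-KD matrices (grey symbols, right), for 3 kinds of contact. Beyond 400 kb the 2R and 3L ends lie highest, and HP1a-KD has the lowest value of all 9 matrices on each arm.

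With the interior of the same arm at 2 to 10 Mb, the ends split the other way. The 2R and 3L ends contacted the interior less than interior bins contact each other, both with a mean ratio of 0.75 (SD 0.011 and 0.022), the 2L and X ends had 0.96 ± 0.010 and 0.97 ± 0.032, and the 3R end had 1.38 ± 0.020 (n = 4 matrices). The ends with the densest long contacts among themselves were thus those with the fewest contacts into their own arm, and the 3R end, close to the interior mean in its internal contacts, had the most. The deposited values are corrected by ICE so that every bin has the same total, and more contacts of one kind leave fewer of the others. How far this ties these ratios to each other was not tested. Control-KD ratios were not compared on contacts before this correction.

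Upon HP1a-KD, the long contacts within the arm ends were lower in all 5 arms. Beyond 400 kb the ratio of observed over expected contacts was 1.39 in HP1a-KD, against 1.72 in its Control-KD, as the geometric mean of the arms. The log2 change was -0.30 with an SD of 0.14 over the 5 arms, where the control pairs had a spread of 0.035 and reached 0.055. Arms are parts of 1 matrix and not replicates.

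By arm, the ratio was 1.05 in HP1a-KD against 1.37 in Control-KD on X, a log2 change of -0.38 that brings this end close to the interior mean. It was 1.83 in HP1a-KD against 2.45 in Control-KD on 3L (log2 change -0.42) and 1.90 against 2.49 on 2R (-0.39), so these ends still exceeded expectation. On 2L it was 1.30 in HP1a-KD against 1.51 in Control-KD (-0.22), and on 3R 1.11 against 1.19 (-0.093). Each of the 5 changes was larger than the largest control pair of its arm, which was 0.096 on X, 0.052 on 2L, 0.086 on 2R, 0.22 on 3L and 0.087 on 3R. Counting error was far smaller, at most 0.017, since each value rests on 12655 to 66251 contacts.

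In interior windows of the same size, the HP1a-KD change beyond 400 kb ran between -0.089 and 0.13, with a median of -0.019 over the 47 windows. With bins kept in all 9 matrices, the changes at the arm ends were -0.40 on X, -0.22 on 2L, -0.39 on 2R, -0.44 on 3L and -0.094 on 3R, all below the lowest of these windows, on 3R by 0.0044. The telomere-proximal ends also had fewer long contacts, with a mean change of -0.067 against a largest control pair of 0.032, a smaller change than at the centromere-proximal ends.

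The change varied with distance. Averaged over arms, the log2 change of end over interior upon HP1a-KD was 0.045 at 40 kb, -0.12 at 200 kb, -0.21 at 400 kb, -0.32 at 600 kb and -0.39 at 1000 kb. It was -0.33 at 1200 kb and -0.11 at 1600 kb, and at 1800 kb, where few pairs are left, a control pair reached 0.35. At each of the distances looked at from 320 to 1600 kb the value was past the largest control pair, which was 0.044 to 0.10.

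**Figure D2:**
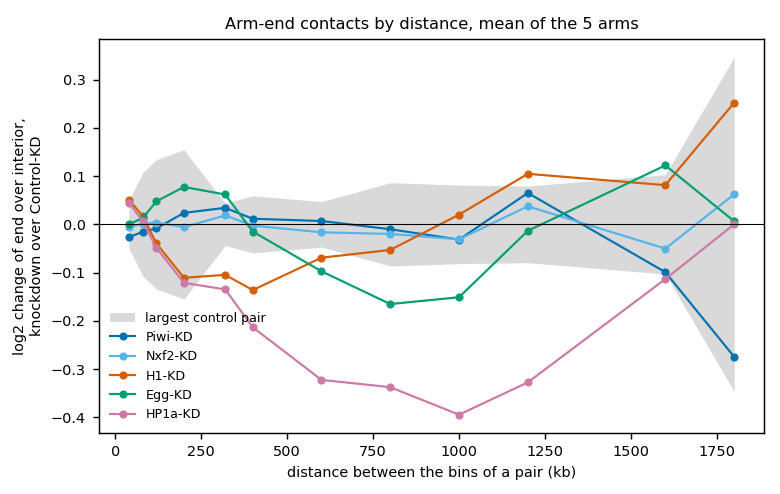
Log2 change of arm-end over interior contacts, KD over Control-KD (y axis), by distance between the bins of a pair (x axis, kb), as the mean of 5 arms; the grey band is the largest control pair. HP1a-KD is lowest at 1000 kb with -0.39, Egg-KD reaches -0.17 at 800 kb, and Piwi-KD and Nxf2-KD stay within the band at every distance plotted up to 1200 kb.

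The size of this decrease depended on the ICE correction, which gives every bin the same total. On recovered contacts, before ICE, the mean change beyond 400 kb was -0.11, still lower in 5 of 5 arms, against a largest control pair of 0.057 on the same scale. By arm it was -0.18 on X, -0.052 on 2L, -0.074 on 2R, -0.095 on 3L and -0.14 on 3R, and only 3L and 3R exceeded their largest control pairs of 0.091 and 0.10. The raw coverage of the end bins moved with the change: relative to the interior it was higher upon HP1a-KD, by a median of 0.14 on the log2 scale over 244 bins. The median coverage of the X end was 0.74 of the interior in HP1a-KD, against 0.57 in Control-KD, and that of the 3L end was 0.69 in HP1a-KD, against 0.50. On 3R, where the change on recovered contacts was past the control pairs, coverage was instead 0.85 in HP1a-KD, against 0.89 in Control-KD. The part of coverage in the decrease was not tested. With each of the other 3 Control-KD matrices, contacts beyond 400 kb were again lower in 5 of 5 arms, with means of -0.32 to -0.27. On 3R the change was then -0.16 to -0.069, and with the Control-KD shared by H1-KD and Egg-KD it was within the control pairs.

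Knockdown of the methyltransferase Egg gave a smaller and mixed change. The ratio beyond 400 kb was 1.63 in Egg-KD against 1.74 in Control-KD, a log2 change of -0.096 that exceeded the largest control pair. The 2R end had 2.13 in Egg-KD against 2.59 (-0.28) and the 2L end 1.37 against 1.56 (-0.19), both past their largest control pair. The 3L end had 2.19 in Egg-KD against 2.52, and its change of -0.20 did not exceed the control pair of 0.22. The 3R end went the other way, with 1.27 in Egg-KD against 1.17 (0.12, against a control pair of 0.087), and the X end had 1.42 in Egg-KD against 1.35 (0.066, within its control pairs). On recovered contacts the mean was -0.0012, with X at 0.20, 2L at -0.099, 2R at -0.16, 3L at -0.095 and 3R at 0.14, so that the mean decrease was lost while each arm had the same sign. X and 2L were then within their largest control pairs of 0.21 and 0.15. Against Control-KD cells of the Nxf2 series the mean was -0.042, which is within the largest control pair.

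H1-KD had opposite changes on different ends, with a mean of -0.042, within the largest control pair. This mean was 0.0075 against Control-KD cells of the Nxf2 series, and with 1 Mb per end it was -0.18, where the largest control pair of the 2-Mb ends was 0.055. Against the Control-KD that Egg-KD shares, the X end had a ratio of 1.59 in H1-KD against 1.38 (0.20), while the 2R end had 2.28 against 2.59 (-0.18) and the 2L end 1.43 against 1.55 (-0.11), all 3 past the largest control pair. The increase on X was above the range of all 47 interior windows upon H1-KD, which was -0.078 to 0.10. The changes on 3L (-0.10) and 3R (-0.018) were within their control pairs. On recovered contacts the changes were 0.26 on X and -0.19 on 2R, past their largest control pairs of 0.21 and 0.085, and -0.090 on 2L, within that of 0.15.

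Upon Piwi-KD and Nxf2-KD, the mean change of long contacts was 0.00084 and -0.012, both within the control-pair spread. The 2L end was the exception: its ratio was 1.42 in Piwi-KD against 1.54 in Control-KD (-0.12), and 1.46 in Nxf2-KD against 1.57 in its own Control-KD (-0.11), with a largest control pair of 0.052. On recovered contacts these were -0.13 and -0.12. The 2L end was lower beyond 400 kb in all 5 KDs, at -0.12 in Piwi-KD, -0.11 in Nxf2-KD, -0.11 in H1-KD, -0.22 in HP1a-KD and -0.19 in Egg-KD, and in none of the 5 KDs did an interior window of 2L fall below its own end. On recovered contacts it ran from -0.13 (Piwi-KD) to -0.052 (HP1a-KD), and all 5 changes were within the largest control pair of 0.15. H1-KD and Egg-KD share a Control-KD matrix, and the 5 changes rest on 4 Control-KD matrices.

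**Figure D3:**
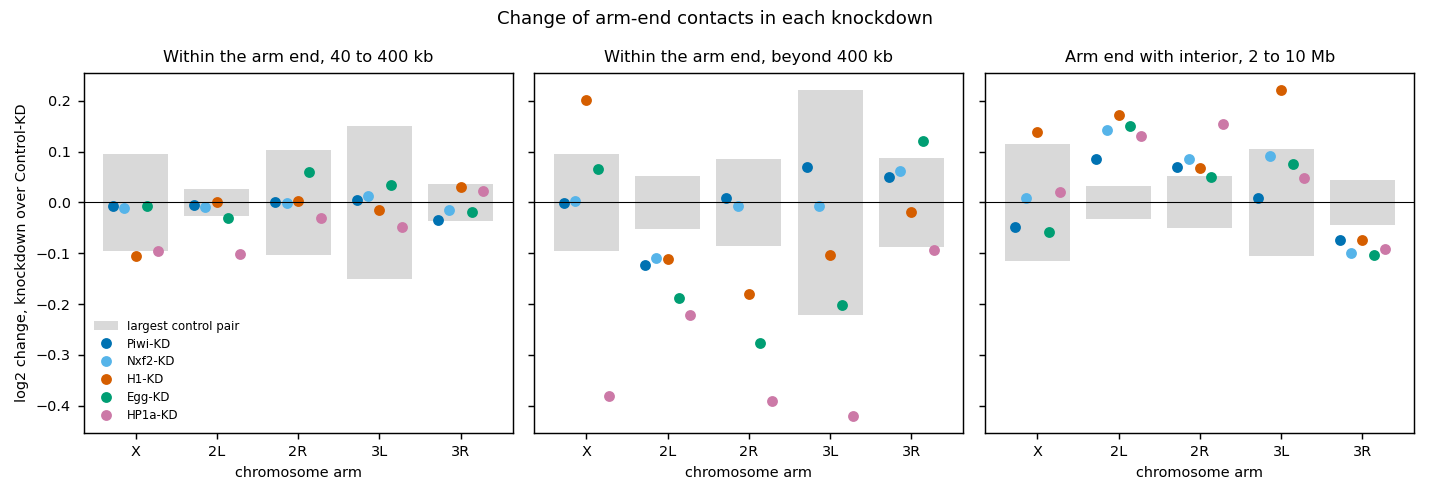
Log2 change of observed over expected contacts, KD over Control-KD (y axis), for each arm (x axis) and the 5 KDs (coloured points), with the range of the largest control pair of that arm in grey. Beyond 400 kb all 5 HP1a-KD points lie under the grey range, and at 2 to 10 Mb all 5 KDs lie above 0 on 2L and 2R and below 0 on 3R.

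The long contacts were then divided into pairs of 400-kb blocks, counted from the arm end, to ask where in the ends they changed. In Control-KD the densest pairs join the outer to the middle part of the 2R and 3L ends: the 2R block at 0 to 400 kb had 4.18 times the expected contacts with the block at 1200 to 1600 kb, and the 3L block at 0 to 400 kb had 3.90 times with that at 800 to 1200 kb (means of 4 Control-KD matrices). The block of 2R at 1600 to 2000 kb, nearest to the interior, did not share in this, with 1.18 times the expected contacts with the outermost block.

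Upon HP1a-KD these same block pairs were lower. On 3L, contacts of the outermost block with the block at 1200 to 1600 kb were 1.70 times expectation in HP1a-KD, against 3.11 in Control-KD, from 2255 and 4397 contacts, a log2 change of -0.87 with a counting error of 0.037. On 2R the same blocks had 2.56 in HP1a-KD against 4.14 (-0.69). The largest control pair was 0.33 for the 3L blocks and 0.15 for the 2R blocks, and on recovered contacts the changes were -0.59 and -0.42. The densest 3L pair of Control-KD, 0 to 400 kb with 800 to 1200 kb, had 2.67 in HP1a-KD against 3.97 (-0.57), but -0.073 on recovered contacts. The X blocks at 0 to 400 and 1200 to 1600 kb had 0.68 in HP1a-KD against 1.07 (-0.67, or -0.27 on recovered contacts). Of the 75 block pairs within ends, 40 were lower than in every control pair upon HP1a-KD and 8 were higher. That is 53.3% and 10.7%, against 26.2% and 19.7% of all 780 block pairs when interior windows are included. On 2L all 15 block pairs were lower, 10 of them past every control pair. On recovered contacts 40 of the 75 block pairs were lower and 35 higher, and on 2L 10 were lower and 5 higher.

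In Egg-KD, 19 of the 75 block pairs were lower than every control pair and 12 were higher, or 25.3% and 16.0%, against 20% and 20.9% of all block pairs, and these shares are near the background. The 2R block pair named above had 3.22 in Egg-KD against 4.42 in Control-KD (-0.46), and the block at 400 to 800 kb had 2.59 against 3.69 with that at 1200 to 1600 kb (-0.51). The X end held a change in the other direction, where blocks at 400 to 800 and 1600 to 2000 kb had 2.44 in Egg-KD against 1.58 (0.63), from 3646 and 2129 contacts.

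In H1-KD the 2R end changed along its length. The block at 1600 to 2000 kb gained contacts with every other block of the end: with the outermost block it had 1.78 in H1-KD against 1.18 in Control-KD (0.60), with that at 400 to 800 kb 1.56 against 1.15 (0.43), with that at 800 to 1200 kb 1.35 against 0.93 (0.54) and with that at 1200 to 1600 kb 1.18 against 0.87 (0.44). The largest control pairs were 0.061 to 0.095, and the changes on recovered contacts were 0.26 to 0.56. The same block lost contacts with itself, with 1.23 in H1-KD against 1.53 (-0.32). The outermost 2R block in turn had fewer contacts with the block at 1200 to 1600 kb, with 3.19 in H1-KD against 4.42 (-0.47).

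On X, contacts of the outermost block with the blocks starting at 800, 1200 and 1600 kb were higher in H1-KD. The ratios were 1.45, 1.46 and 1.53 in H1-KD, against 0.92, 0.98 and 1.07 in Control-KD, log2 changes of 0.66, 0.57 and 0.52 against largest control pairs of 0.36, 0.29 and 0.36. Upon HP1a-KD the first 2 of these pairs changed by -0.52 and -0.67 against its own Control-KD. Over all ends H1-KD had 24 block pairs lower and 22 higher than every control pair, or 32.0% and 29.3%, against 20.5% and 29.5% of all block pairs. The share of higher pairs is thus near the background, and gains past every control pair were as common in interior windows.

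For Piwi-KD, 19 block pairs were lower and 6 higher, 25.3% and 8.00% against 15.3% and 15.9% of all block pairs, and for Nxf2-KD 12 were lower and 6 higher, 16.0% and 8.00% against 14% and 15.1%. The share of lower pairs in Nxf2-KD is near the background. The largest decrease in each lay on 2L between the outermost block and that at 1600 to 2000 kb. It had 0.86 times the expected contacts in Piwi-KD against 1.10 in Control-KD (-0.35), and 0.88 in Nxf2-KD against 1.13 (-0.36), with a largest control pair of 0.090.

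**Figure D4:**
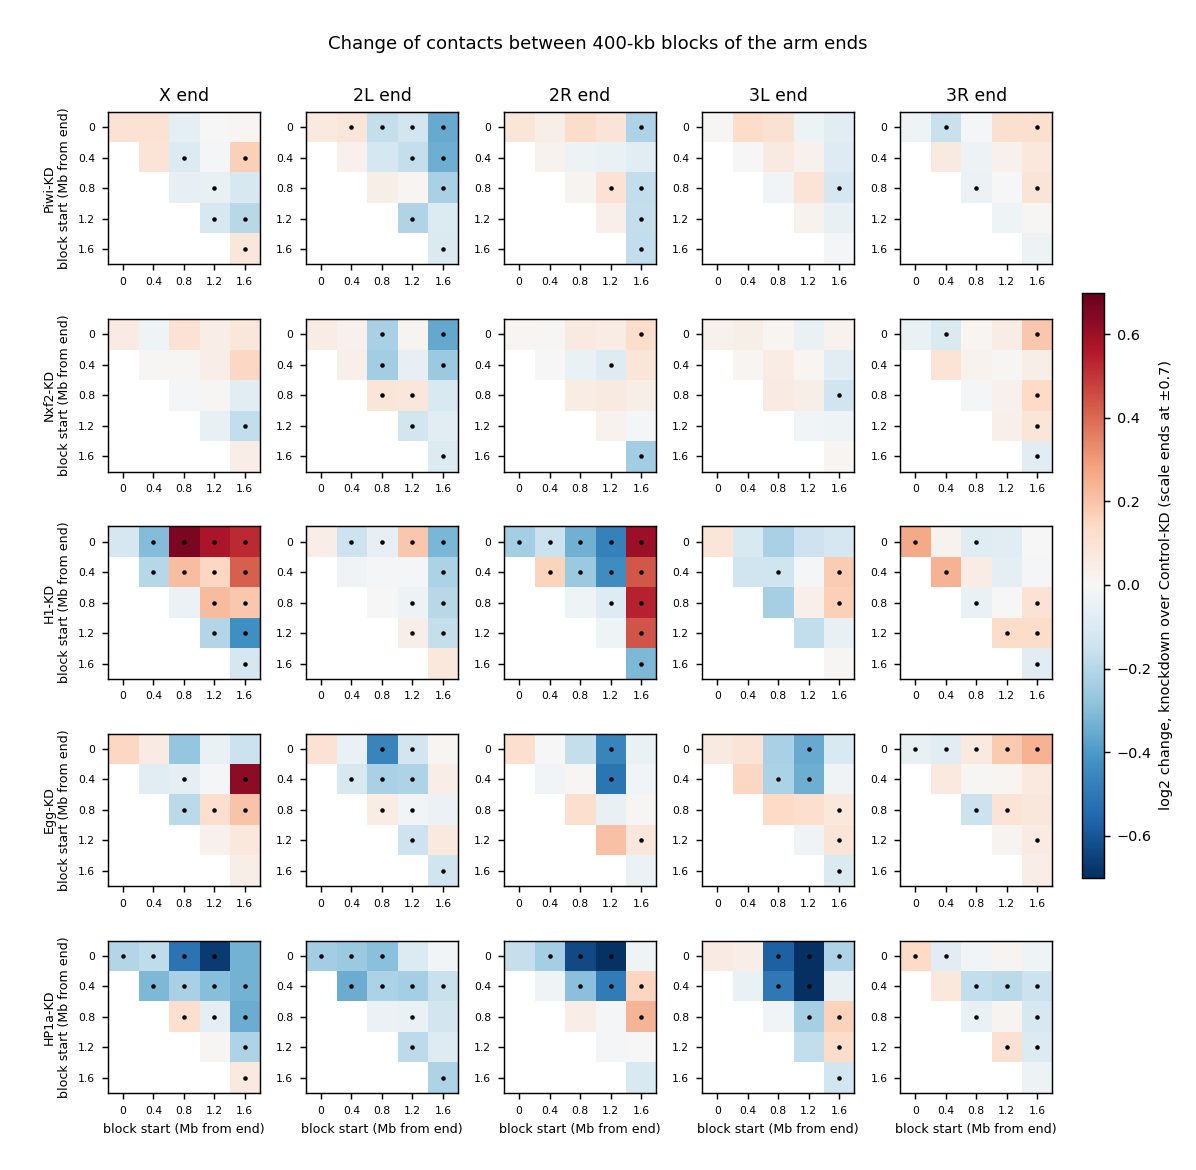
Log2 change of contacts between 400-kb blocks of each arm end, KD over Control-KD (colour), by distance of the 2 blocks from the arm end (axes, Mb), for 5 KDs (rows) and 5 arms (columns); dots mark changes larger than every control pair. The strongest decreases are between outer and middle blocks of 3L (-0.87), 2R (-0.69) and X (-0.67) upon HP1a-KD. The block at 1.6 Mb of 2R gains contacts with the other blocks upon H1-KD.

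At 40 to 400 kb, the mean of the arms did not move past the largest control pair of 0.062 in any KD. The changes were -0.0079 in Piwi-KD, -0.0047 in Nxf2-KD, -0.017 in H1-KD, -0.051 in HP1a-KD and 0.0073 in Egg-KD. Only the X and 2L ends had changes past the control pairs. The X end changed by -0.11 in H1-KD and by -0.097 in HP1a-KD, the second just past the largest control pair of 0.096. The 2L end changed by -0.10 in HP1a-KD and by -0.032 in Egg-KD, against a largest control pair of 0.026. On recovered contacts, the short contacts of the ends were instead higher upon HP1a-KD, with a mean of 0.12 against a largest control pair of 0.11. The 2L end was then higher by 0.044 in HP1a-KD and by 0.027 in Egg-KD, within its control pairs. No direction is given for these changes here.

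With the interior at 2 to 10 Mb, H1-KD had the largest change. The mean ratio was 1.00 in H1-KD against 0.93 in Control-KD, a log2 change of 0.11 with an SD of 0.11 over the arms and a largest control pair of 0.036. It was higher on 3L (0.22), 2L (0.17), X (0.14) and 2R (0.069) and lower on 3R (-0.073), and each arm was past its own largest control pair. The mean was 0.046 in Nxf2-KD and 0.052 in HP1a-KD, both past the largest control pair, while Piwi-KD (0.0079) and Egg-KD (0.023) were within it. The Nxf2-KD mean was 0.011 against Control-KD cells of the Piwi series and 0.013 against those of the HP1a series, both within the largest control pair.

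On 3 arms the change had the same sign in every KD. The 2L end was higher in all 5 KDs, by 0.085 (Piwi-KD), 0.14 (Nxf2-KD), 0.13 (HP1a-KD), 0.17 (H1-KD) and 0.15 (Egg-KD), against a largest control pair of 0.033. The 3R end was lower in all 5, at -0.074, -0.099, -0.092, -0.073 and -0.10 in the same order of KDs, against 0.045. The 2R end was higher in all 5, by 0.050 (Egg-KD) to 0.15 (HP1a-KD), with Egg-KD just under the largest control pair of 0.051. In values, the 3R end had a ratio of 1.29 to 1.32 in the 5 KD matrices, against 1.35 to 1.40 in the 4 Control-KD matrices, and the 2L end had 1.01 to 1.07 against 0.95 to 0.97, so that KD and Control-KD did not overlap on either arm. The telomere-proximal end of 3R was also lower in all 5 KDs, at -0.10 (Piwi-KD), -0.13 (Nxf2-KD), -0.067 (HP1a-KD), -0.070 (H1-KD) and -0.053 (Egg-KD), against a largest control pair of 0.017, and that of 2R was higher in all 5, by 0.0021 (H1-KD) to 0.093 (Nxf2-KD), against 0.038. These signs on 3R and 2R were thus found at both ends of the arm. The telomere-proximal end of 2L was higher in Piwi-KD (0.034), Nxf2-KD (0.082) and Egg-KD (0.051), past the largest control pair of 0.020. It had 0.014 in H1-KD and -0.0099 in HP1a-KD. On recovered contacts, the 2L end remained higher in all 5 KDs, by 0.11 to 0.19, and the 3R end lower, from -0.12 (HP1a-KD) to -0.047 (Piwi-KD), where the largest control pairs were 0.077 and 0.066. The 3R changes of Piwi-KD and H1-KD (-0.065) were then within the control pairs.

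The share of the total of a bin that lies within its arm was also compared between the ends and the interior. Its median over end bins was 87.8% in HP1a-KD against 84.9% in Control-KD, and over interior bins 88.1% in HP1a-KD against 83.9%, so that the end changed by -1.27 percentage points relative to the interior. This difference was -1.17 in H1-KD, -1.08 in Egg-KD, -0.46 in Piwi-KD and -0.32 in Nxf2-KD, with a largest control pair of 0.90. By arm, HP1a-KD had -3.03 on X, -2.81 on 3L, -1.68 on 2R and -1.18 on 2L, against largest control pairs of 1.72, 0.83, 1.21 and 0.78. On 3L H1-KD had -2.48 and Egg-KD -1.72, and on 2L they had -1.72 and -1.12. On 3R all 5 KDs were past the largest control pair of 0.55, in both directions, at -1.67 in Piwi-KD, -1.68 in Nxf2-KD, 1.23 in HP1a-KD, 0.61 in H1-KD and -0.98 in Egg-KD. There the median share of end bins was 81.2% in Piwi-KD against 82.4% in Control-KD, and 79.0% in Nxf2-KD against 80.5%.

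Finally, bins were taken one by one. For each bin, contact values at 40 to 400 kb were summed, the log2 ratio of KD over Control-KD was taken and the median of the arm was subtracted, and 3 control-pair spreads over all bins, 0.15, was taken as the limit. The control-pair spread of end bins alone, 0.077, is larger than that of interior bins, 0.049, so end bins pass the limit more readily. The counts of end bins beyond every control pair at their position are given as well. Interior bins were not counted in this way, so these counts have no background share beside them.

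Upon HP1a-KD, 28 of 244 end bins decreased and 4 increased past the limit, which is 11.5% and 1.64%, against 4.5% and 3.04% of all bins. Of the decreased bins 15 lay on X, 7 on 2L, 3 each on 2R and 3L and 0 on 3R, and 23 of the 28 exceeded every control pair at their position. Their raw coverage relative to the interior was higher by a median of 0.35, against 0.14 for all end bins, and its part in the decrease was not tested. Upon H1-KD, 23 of 239 end bins decreased and 9 increased, 9.62% and 3.77% against 4.24% and 3.32% of all bins, and 14 of the decreased bins lay on X. Of these, 21 decreased and 6 increased bins exceeded every control pair. Upon Egg-KD, 10 of 244 end bins decreased and 5 increased, 4.10% and 2.05% against 3.18% and 0.304% of all bins, and 10 and 2 of them exceeded every control pair. On recovered contacts the direction turned: upon HP1a-KD 12 end bins decreased and 108 increased, 4.92% and 44.3% against 6.63% and 7.92% of all bins. Upon Egg-KD 2 decreased and 77 increased, 0.82% and 31.6% against 1.56% and 3.04%. On that scale the control-pair spread was 0.077 over all bins and 0.14 over end bins, so the limit is less strict. The Control-KD matrices of the Piwi and Nxf2 series themselves differed past it in 94 end bins (38.8%, against 9.16% of all bins). The Control-KD of the Nxf2 series over that of the HP1a series had 80 end bins increased and 0 decreased, 32.8% and 0% against 4.5% and 1.18% of all bins. The Egg-KD counts thus lie within the differences between Control-KD matrices.

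Piwi-KD had 8 decreased and 1 increased of 242 end bins, 3.31% and 0.413% against 2.14% and 0.0339% of all bins, of which 7 and 1 exceeded every control pair. Nxf2-KD had 5 decreased and 0 increased of 244, 2.05% and 0% against 2.54% and 0.0676% of all bins, a share near the background, and all 5 exceeded every control pair. The choice of Control-KD moved these counts: against Control-KD cells of the Nxf2 series, 43 end bins were past the limit in Piwi-KD (17.7%, against 8.14% of all bins), 73 in H1-KD (30.5%, against 16.1%) and 75 in HP1a-KD (30.7%, against 17.5%), and against those of the Piwi series 74 in Nxf2-KD (30.6%, against 6.55%). At the inner border of the ends, at 1600 to 2000 kb from the arm end, the mean change over 50 bins was negative in all 5 KDs, at -0.044 (Piwi-KD), -0.052 (Nxf2-KD), -0.049 (HP1a-KD), -0.071 (H1-KD) and -0.031 (Egg-KD), with a largest control pair of 0.012. This is 1 of 5 blocks per end, and over the others the largest control pair was 0.057 to 0.12. On X it was 0.0036 in Piwi-KD, -0.00045 in Nxf2-KD and 0.0088 in Egg-KD, and on 2R -0.12 in Piwi-KD and -0.11 in Nxf2-KD. Interior blocks were not compared in this way.

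**Figure D5:**
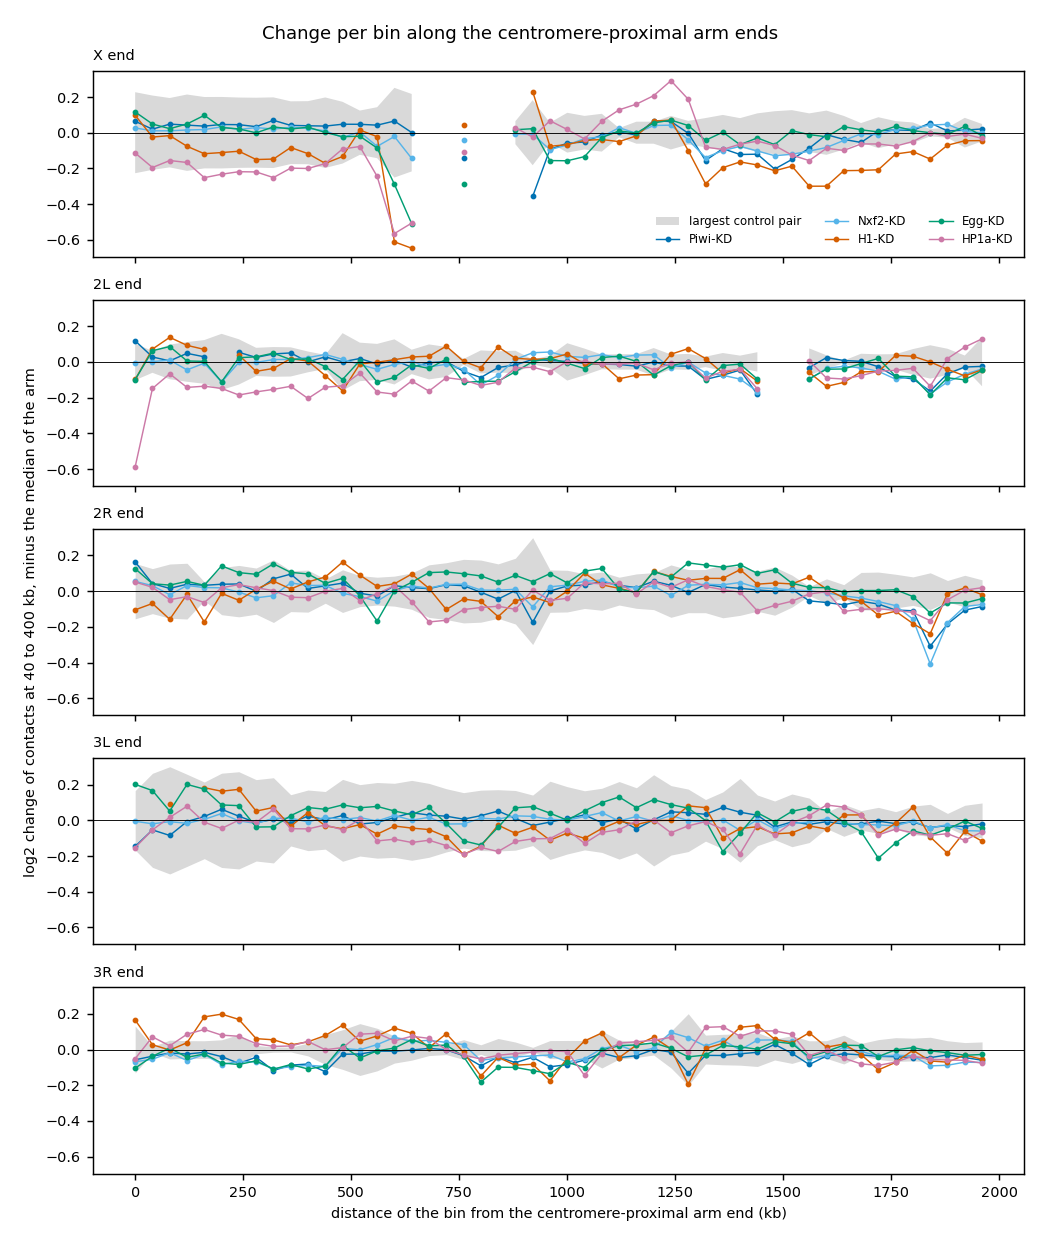
Log2 change per bin at 40 to 400 kb, KD over Control-KD, minus the median of the arm (y axis), by distance of the bin from the arm end (x axis, kb), for the 5 arm ends and 5 KDs (coloured lines); the grey band is the largest control pair at that bin, and gaps are removed bins. At 600 to 640 kb on X, HP1a-KD, Egg-KD and H1-KD dip, HP1a-KD also dips at the outermost 2L bin to -0.59, and Piwi-KD and Nxf2-KD dip at 1840 kb on 2R.

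The largest decreases lay on X 21760001–21840000, 600 to 640 kb from the arm end and beside bins removed from all matrices. The bin at 21760001 had a summed signal of 2042 in H1-KD against 3337 in Control-KD, from 1658 and 2853 contacts, a change of -0.65 with a counting error of 0.045. It was -0.51 in both HP1a-KD and Egg-KD, against 0.22 in the largest control pair. Piwi-KD had 0.00091 and Nxf2-KD -0.14 there. The neighbouring bin at 21800001 had -0.61 upon H1-KD, -0.57 upon HP1a-KD and -0.29 upon Egg-KD, against 0.25 in the largest control pair. On recovered contacts the first bin kept -0.46 (H1-KD), -0.54 (HP1a-KD) and -0.24 (Egg-KD), while the neighbour had -0.19, -0.34 and 0.039 in the same order, so that its decrease upon Egg-KD was not seen without ICE. Coverage of the neighbour was higher by 0.51 (H1-KD), 0.26 (Egg-KD) and 0.21 (HP1a-KD), and its part was not tested.

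The outermost bin of 2L, 22960001–23000000, had the largest decrease of any end bin upon HP1a-KD. Its summed signal was 5263 in HP1a-KD against 6777 in Control-KD, a change of -0.59 against a largest control pair of 0.10, and -0.36 on recovered contacts. It changed by 0.12 in Piwi-KD (0.023 on recovered contacts), -0.0037 in Nxf2-KD and -0.099 in both H1-KD and Egg-KD. The difference between these KDs was not tested. Bins of X 21120001–21240000, 1200 to 1280 kb from the arm end, increased upon HP1a-KD by 0.19 to 0.29. Their raw coverage was lower by -0.17 to -0.091 on the log2 scale, and on recovered contacts they increased by 0.096 to 0.23.

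Piwi-KD and Nxf2-KD shared their decreased region on 2R. The bin 2R 1840001–1880000 had a summed signal of 14872 in Piwi-KD against 18223 in Control-KD (-0.31), and 11727 in Nxf2-KD against 15904 in its own Control-KD (-0.41). The changes on recovered contacts were -0.21 and -0.35, and the largest control pair was 0.10. The next bin, 2R 1880001–1920000, had -0.18 in both KDs, against 0.060 in the largest control pair. HP1a-KD, H1-KD and Egg-KD had -0.17, -0.24 and -0.12 at the first of these bins. The bin 2L 21120001–21160000 decreased by -0.18 in Nxf2-KD and had -0.16 in Piwi-KD.

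In Piwi-KD the largest decrease of a bin, -0.36 at X 21480001–21520000, adjoins a bin that was removed from its Control-KD, and it was 0.012 on recovered contacts. H1-KD had 0.23 at the same bin and -0.059 on recovered contacts, so no direction is given there. The bin X 20920001–20960000 had -0.20 in Piwi-KD and -0.21 in H1-KD, or -0.17 and -0.035 on recovered contacts, and X 20840001–20880000 had -0.30 in H1-KD, or -0.048 on recovered contacts. The increases were small. The outermost 2R bin had 0.16 in Piwi-KD against 0.16 in the largest control pair, and X 21200001–21240000 had 0.066 against 0.062. In Nxf2-KD, 2L 22000001–22080000 and 3R 680001–720000 had 0.051 to 0.055, against largest control pairs of 0.014 to 0.035.

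In H1-KD the bins 3R 160001–240000 increased by 0.18 and 0.20, with 0.17 and 0.20 on recovered contacts, against 0.049 and 0.055 in the largest control pairs. At the same bins HP1a-KD had 0.11 and 0.081, and the other 3 KDs were below 0. Egg-KD had increases of 0.16 at 2R 1280001–1320000 and 0.15 at 2R 1400001–1440000, against 0.12 and 0.14 in the largest control pairs. It also had 0.20 at the outermost 3L bin, which rests on 558 contacts in Egg-KD against 499 in Control-KD, with a counting error of 0.089. The bin X 21640001–21680000, between removed bins, had -0.29 in Egg-KD and -0.069 on recovered contacts.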

How the data were processed

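Hi-C libraries had been cut with HindIII. Using HiCExplorer, the authors binned dm3 at 40 kb, added the 2 replicates together, dropped bins whose coverage was too low or too high, corrected the matrix by ICE and normalized the matrices against one another. The Hi-C aligner is not given in the sources used here. The deposited values are thus an ICE-corrected signal for every pair of bins, no longer whole contacts. Columns of per-sample values left unused number 0.

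Contacts were recovered by undoing the correction factor of either bin, and for values under 50 the result was whole to within 0.01 in 100% of cases. They served for counting errors, which cover counting only, and as an alternative. Observed over expected ratios used interior pairs at the same distance, where at least 20 were kept. Interior windows of 2 Mb needed at least 5 bins kept per 400-kb block, and block pairs used bins at least 80 kb apart. Scripts were checked on simulated matrices with known losses.

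Named regions are, for each KD, the 3 most decreased and the 3 most increased end bins whose change exceeded all 6 control pairs, and neighbours were joined. Block pairs and arms were named after their values were seen. The members, measures and alternatives were chosen with earlier results of these data known, and interior windows, block pairs and 1 alternative were added after seeing the data. Alternatives were other Control-KD matrices, recovered contacts, bins kept in all 9 matrices, 1 Mb per end, contacts at 80 to 400 kb, limits of 2 and 4 spreads, and leaving out bins next to a removed bin. Gene annotation of dm3 was not used here, so no genes are given for the regions. Analyses ran in Python 3.11.15 with pandas 2.3.3, NumPy 2.4.6 and SciPy 1.17.1, and plots were drawn with matplotlib 3.10.9.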

Additional observations from a re-analysis of the deposited data

Results flagged for a closer look

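Among the 4 Control-KD matrices, 2 of the 15 sets of arm-end ratios (5 arms, 3 kinds of contact) held a matrix far from the other 3, and chance alone gives such a set about 1 time in 20. The 3R end with the interior at 2 to 10 Mb had 1.35 in Control-KD cells of the Piwi series, against 1.39 to 1.40 in the others. The 2L end at 40 to 400 kb had 1.26 in the Control-KD shared by H1-KD and Egg-KD, against 1.28 in the others.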

How the results depend on the processing

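No paired analysis was possible because the replicates of each group were merged before deposit, and for the same reason no replicate was left out. Of 155 alternative values, 97 stayed within the control-pair spread of the reported value (or within 1.5 times a count), 56 moved further, and 2 results past that spread changed sign. The cause of the moves was not tested, except that other limits change counts by construction.

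Set against Control-KD cells of the Nxf2 series, changes at 40 to 400 kb were -0.070 (Piwi-KD), -0.068 (H1-KD) and -0.045 (Egg-KD). Beyond 400 kb they were 0.053 (Piwi-KD), 0.0075 (H1-KD, a change of sign) and -0.042 (Egg-KD), and at 2 to 10 Mb 0.044 (Piwi-KD) and 0.084 (HP1a-KD). Bins past the limit numbered 43 (Piwi-KD), 73 (H1-KD) and 75 (HP1a-KD). Against Control-KD cells of the Piwi series, Nxf2-KD had 0.058 at 40 to 400 kb, -0.061 beyond 400 kb, 0.011 at 2 to 10 Mb and 74 bins, and Egg-KD had -0.0039 at 2 to 10 Mb and 31 bins. With the Control-KD shared by H1-KD and Egg-KD, Nxf2-KD had 0.048, -0.067 beyond 400 kb and 27 bins, Piwi-KD had 0.034 at 2 to 10 Mb and HP1a-KD 18 bins. With that of the HP1a series, Nxf2-KD had 0.013 at 2 to 10 Mb and 15 bins. The 31 bins of Egg-KD were 12.8% of end bins, against 3.97% of all bins. For Nxf2-KD, the 27 and 15 bins were 11.1% and 6.15%, against 4.5% and 3.76%. The 18 bins of HP1a-KD were 7.38%, against 5.68%.

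On recovered contacts, HP1a-KD had 0.12 at 40 to 400 kb (a change of sign), -0.11 beyond 400 kb and 0.11 at 2 to 10 Mb. It had 120 bins past the limit (49.2%, against 14.5% of all bins). Egg-KD had 0.062, -0.0012, 0.060 and 79 bins (32.4%, against 4.6% of all bins). Piwi-KD had 0.040 at 2 to 10 Mb and 5 bins (2.07%, against 0.611%). With 1 Mb per end, changes beyond 400 kb were 0.058 (Piwi-KD), -0.36 (HP1a-KD), -0.18 (H1-KD) and -0.15 (Egg-KD), those at 2 to 10 Mb -0.039 (Piwi-KD), 0.15 (H1-KD) and 0.12 (HP1a-KD), and bins numbered 3 (Piwi-KD), 0 (Nxf2-KD) and 17 (H1-KD). With contacts at 80 to 400 kb, bins numbered 18 (Piwi-KD), 63 (HP1a-KD), 74 (H1-KD) and 39 (Egg-KD). A limit of 2 spreads gave 21 bins in Piwi-KD, 13 in Nxf2-KD, 71 in HP1a-KD, 61 in H1-KD and 47 in Egg-KD, and a limit of 4 spreads gave 2, 1, 11, 11 and 4 in that order. For ends of 1 Mb, contacts at 80 to 400 kb and these limits, shares of all bins were not counted. Those counts thus have no background beside them.

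Leaving out bins next to a removed bin, an alternative chosen after seeing the data, moved none of the 20 results past these bounds. With H1-KD the lowest depth and 4 Control-KD matrices the only measure of error, changes near the largest control pair cannot be told from differences between experiments.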
